A study of Mus musculus with 6 samples.

Results

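Cluster 2 is 1 of 11 groups of cells that the authors numbered 0 to 10 in droplet single-cell RNA sequencing of haematopoietic stem cells (HSCs) from mouse bone marrow. Its members were the cells that the authors' deposited cluster tables set against all other cells as cluster 2. They numbered 3910 of 22378 cells (17.5%), a size read from the deposited p-values as described under the processing. Its working name was quiescent HSCs with Socs2 and Meg3, and 6 genes were given to mark it: Socs2, Slfn2, Ltb, Meg3, Mllt3 and Cdkn1c.

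The cells came from 6 mice, all of the genotype Gfp-Lc3, in which LC3, a protein of autophagosomes, is tagged with GFP. A young mouse and an old mouse were each taken ad lib fed, after a 24 hr fast, or after a 24 hr fast and 24 hr of refeeding, with 1 mouse and 1 library in each of these 6 groups. Ages are labelled only as young or old, and no source used here gives the surface markers of the sort or the promoter of the reporter. The tables pool all 6 libraries, so cluster 2 could not be compared between ages or feeding conditions, and no value below has a replicate or a between-animal error.

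Long-term HSCs spend most of their time outside the cell cycle and divide rarely. Cytokines such as thrombopoietin hold them in the marrow niche through receptors that activate JAK kinases and STAT transcription factors, and STATs switch on their own feedback inhibitors of the SOCS family. A cyclin-dependent kinase inhibitor, Cdkn1c (p57), and several imprinted genes (genes read from only the maternal or the paternal copy) are known to be high in resting HSCs, while Cdk6 is known to set how quickly a resting cell re-enters the cycle.

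All 6 label genes were higher in cluster 2 than in the rest. Values below are either the authors' deposited log2 fold changes (cluster 2 against all other cells) or mean levels in counts per 10000 counts of a cell, which were derived here from the deposited mean over all cells and the deposited fold. The clusters were made from these same values, so a fold against the rest is a description of the cluster and not a test. Because the tables give means, few cells with many copies of a gene and many cells with few copies cannot be told apart.

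Socs2 (chromosome 10, 95385362 to 95417180, GRCm38) encodes a STAT5-induced inhibitor of cytokine signalling. Its derived level was 0.817 counts per 10000 in cluster 2 against 0.192, 0.378, 0.307, 0.331 and 0.240 in clusters 0, 1, 3, 4 and 5, and it ran from 0.154 to 0.430 in clusters 6 to 10. Cluster 2 stood above every other cluster, with a deposited log2 fold of 1.53 in the authors' deposited table and about 3740 counts behind it. Slfn2 (chromosome 11, 83065112 to 83070678), a Schlafen family gene known for keeping T cells at rest, had a derived level of 2.15 in cluster 2 and 0.459, 1.53, 0.750, 0.926 and 1.31 in clusters 0, 1, 3, 4 and 5. Clusters 1 and 5 lay nearest to cluster 2 and cluster 0 was the lowest, and the deposited log2 fold of Slfn2 was 1.33 in the authors' deposited table. Of the 7 Schlafen genes measured Slfn2 alone was called. Slfn8 and Slfn5 had folds of 0.34 and 0.17 in the authors' deposited table.

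Ltb (chromosome 17, 35194439 to 35196320) encodes lymphotoxin beta, a membrane-bound ligand of the TNF superfamily. It stood at 4.0 counts per 10000 in cluster 2, at 1.42, 2.46, 2.14, 2.34 and 2.08 in clusters 0, 1, 3, 4 and 5, and at 1.86 to 2.46 in clusters 6 to 10. No other cluster came near the level of Ltb in cluster 2, and its log2 fold was 1.01 in the authors' deposited table. Cdkn1c (chromosome 7, 143458339 to 143461050) stood at 1.31 in cluster 2 against 0.473, 0.713, 0.883, 0.788 and 0.787 in those 5 clusters, with a log2 fold of 0.92 in the authors' deposited table. Mllt3 (chromosome 4, 87769925 to 88033364), a chromatin reader that supports HSC maintenance, stood at 3.29 against 1.48, 2.29, 2.37, 2.67 and 2.15, with a log2 fold of 0.65 in the authors' deposited table. Both were highest in cluster 2 and lowest of the 5 in cluster 0, but the margin of Mllt3 over cluster 4 and over the 10 cells of cluster 10 (2.97) was small.

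Meg3 (chromosome 12, 109541001 to 109571726), a long non-coding RNA made from the maternal copy of the imprinted Dlk1-Meg3 region, was the exception to cluster 2 being highest. Its derived level was 4.18 in cluster 2 and 4.95 in cluster 5, against 0.954, 2.61, 1.33 and 2.11 in clusters 0, 1, 3 and 4. Clusters 2 and 5 therefore shared a high Meg3, and the authors' deposited tables gave them log2 folds of 1.24 and 1.28.

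**Figure D1:**
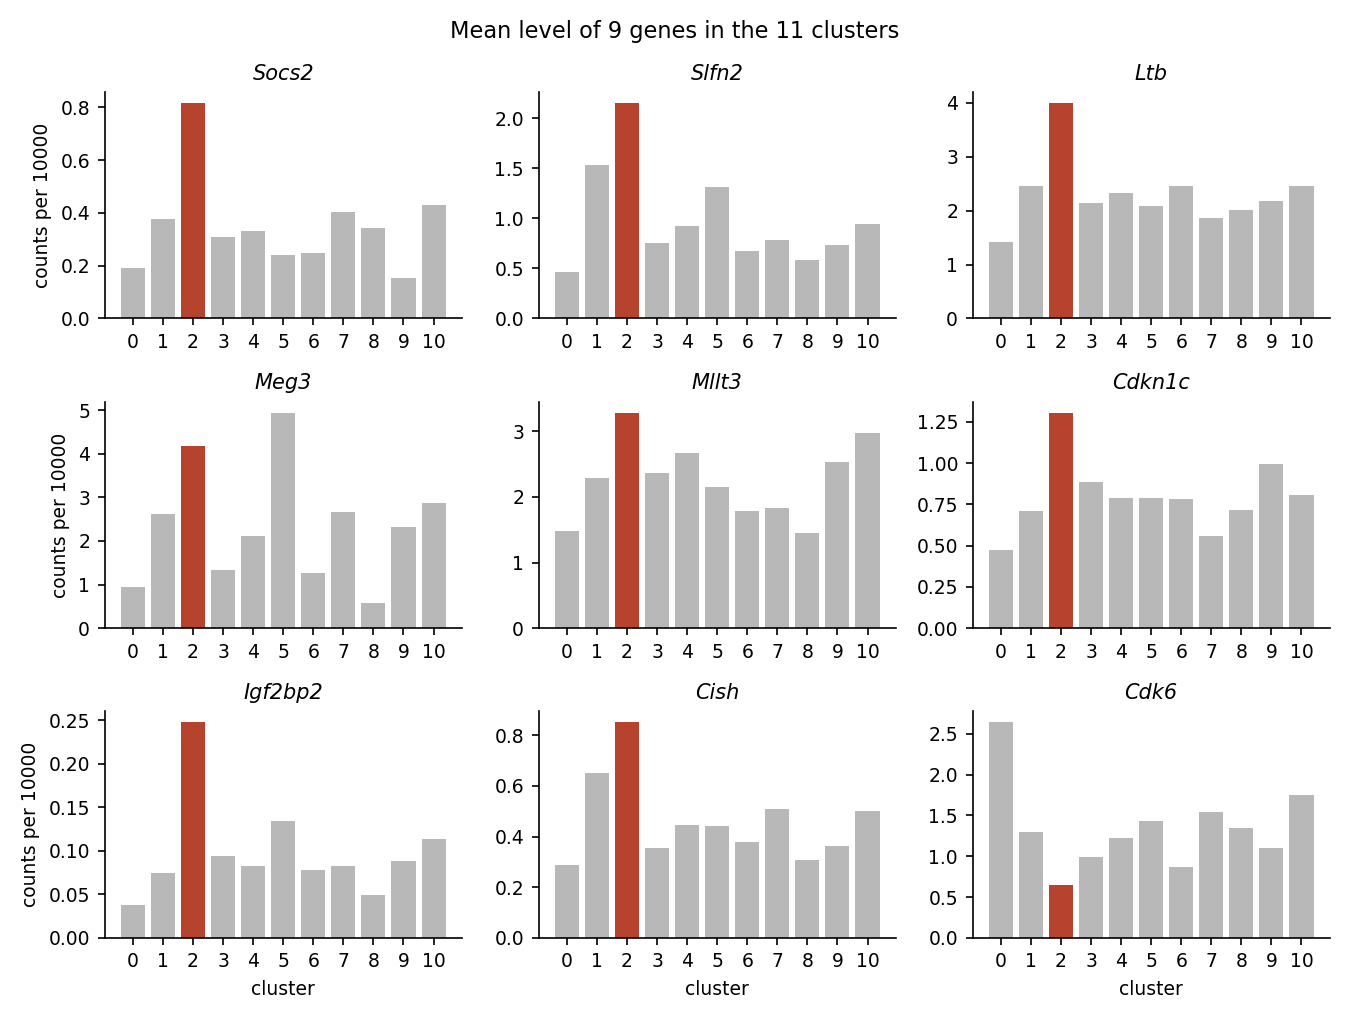
Derived mean level (y axis, counts per 10000 counts of a cell) of 9 genes in the 11 clusters (x axis), with cluster 2 in red and no error bars because the tables hold no replicates. Socs2, Slfn2, Ltb, Mllt3, Cdkn1c, Igf2bp2 and Cish are highest in cluster 2, Meg3 is highest in cluster 5 (4.95 against 4.18), and Cdk6 is lowest in cluster 2 (0.650).

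The label was checked against markers of long-term HSCs, of which Mllt3 is itself a label gene and so no separate check. Of 10 long-term HSC markers 4 were called higher and none lower, with a median log2 fold of 0.45 against 0.02 over all genes; a gene was called on a deposited adjusted p under 0.05 together with a log2 fold of 0.5 or more in size. By this rule 3.02% of all 17068 genes were called higher and 3.49% lower. The markers called were Ctnnal1 (0.71 in the authors' deposited table), Mllt3, Ly6a (0.55, the Sca-1 antigen) and Fgd5 (0.52). Procr (0.48, the EPCR receptor), Mecom (0.42), Hlf (0.21), Slamf1 (0.11) and Kit (-0.17) were not called in the authors' deposited table. The summed level of the 10 markers was 19.2 in cluster 2 and 15.1 in the rest. Singly, clusters 0, 1, 3, 4 and 5 had 12, 15.75, 16.05, 18.13 and 17.23. Cluster 10 had 19.98 and a median log2 fold of 0.44, so cluster 2 was not alone in high marker levels.

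Marker lists of other cells were measured in the same way. The summed levels of the marker lists in cluster 2 and in the rest were 0.412 and 0.403 for B cells, 0.0466 and 0.171 for T or NK cells, 2.67 and 2.95 for neutrophils or monocytes, 1.99 and 1.71 for dendritic cells, 3.76 and 3.48 for endothelial cells, 0.0826 and 0.123 for stromal or bone cells, 9.90 and 10.4 for erythroid cells and 0.919 and 1.39 for megakaryocytes. Of 67 entries on these 8 lists, 1 was called higher, the endothelial phosphatase Ptprb (2.26 in the authors' deposited table, on about 49 counts). The B cell, T or NK cell, neutrophil or monocyte, dendritic and stromal lists each had 1 gene called lower. The erythroid list had 2 called lower, the megakaryocyte list 3 and the endothelial list none. Of all genes 3.02% were called higher and 3.49% lower. The median log2 folds were 0.36 for the endothelial list, with 9 of 12 genes above 0, and 0.34 for the dendritic list, with 3 of 4 above 0. Those of the other 6 lists ran from -0.63 to -0.06. The part of such cells in the results was not tested.

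The word quiescent in the label was checked against genes of dividing cells. Of 28 S phase genes none was called higher and 2 were called lower, Cdc6 (-0.59 in the authors' deposited table) and Uhrf1 (-0.56), at a list median of -0.01. None of 29 G2M genes was called in either direction (median -0.10). Their summed levels were 6.20 for S phase and 3.66 for G2M phase in cluster 2, against 6.54 and 3.95 in the rest. Genes of dividing cells thus differed little between cluster 2 and the rest, and the cluster is called here by its number.

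Over all genes 515 were called higher and 595 lower, but most of them were sparse. Of the higher genes 413, and of the lower genes 514, lay below the median mean level of 0.0971 counts per 10000, and 141 of the lower genes had no count in cluster 2. A count of 0 in 3910 cells allows a share of cells with a count of up to 0.0767%. At or above the median level 102 genes were called higher (1.20% of 8534) and 81 lower (0.949%), at median log2 folds of 0.65 and -0.70, and only 12 of the higher and 16 of the lower reached a log2 fold of 1 in size. At that level most called differences were thus less than a doubling. Over all called genes 178 of 515 higher and 363 of 595 lower genes reached that size.

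**Figure D2:**
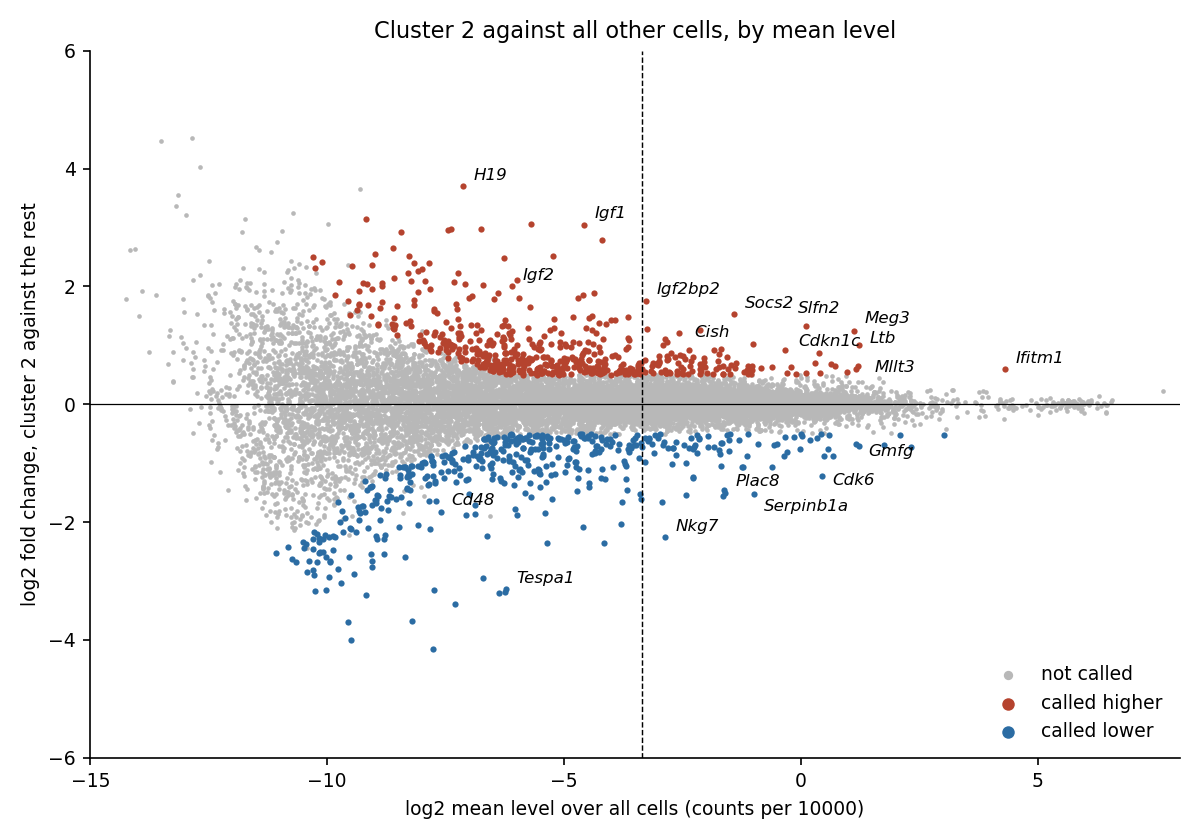
Deposited log2 fold of cluster 2 against the rest (y axis) by deposited log2 mean level over all cells (x axis, counts per 10000) for each gene with a count on both sides, coloured by call. The dashed line is the median level (log2 -3.36), and most called genes lie to its left, while Socs2, Slfn2, Meg3 and Ltb lie to its right.

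Beyond the label genes, the genes with the largest folds at or above the median level are given with what they encode. Igf2bp2 (chromosome 16, 22059009 to 22163299), which binds the Igf2 messenger RNA, led with a log2 fold of 1.76 in the authors' deposited table. Its derived level was 0.248 in cluster 2, 0.135 in cluster 5 and 0.0375 to 0.0942 in clusters 0, 1, 3 and 4. The deposited log2 fold of cluster 2 exceeded the highest fold of any other cluster by 1.36 for Igf2bp2 and 1.33 for Socs2, more than for any other gene called higher at or above the median level. They were followed by Ltb (0.92), Smtnl1 (0.81), Ahnak (0.79), Tns2 (0.71), Slfn2 (0.69), Gm4951 (0.68), Chil5 (0.66) and Ebi3 (0.64). Each fold is against that cluster's own rest, so these differences are not distances between levels: in derived levels Igf2bp2 stood at 0.248 against at most 0.135 in another cluster, and Socs2 at 0.817 against at most 0.430.

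Those that encode cytoskeletal proteins included Ahnak, a giant scaffold protein (1.28), Smtnl1, a smoothelin-like protein (1.26), Tns2, a tensin of focal adhesions (1.21), and Ablim1, an actin-binding LIM protein (0.91), all from the authors' deposited table. Among secreted or surface proteins the authors' deposited table gave Kazald1 (1.11), the chitinase-like Chil5 (1.01), Plxdc2 (0.93), Ebi3, a subunit of interleukins 27 and 35 (0.92), and Jam3, a junctional adhesion molecule of HSCs (0.82). Xdh, the enzyme xanthine dehydrogenase, was at 0.84, and Hmga2 and Hmga1, chromatin proteins that are high in fetal HSCs, were at 0.87 and 0.81 in the authors' deposited table. Hmga2 and Hmga1 were the 2 members called among 33 chromatin and HMG genes (median -0.02).

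Cluster 0 stood opposite to cluster 2. Over the 102 higher genes at or above the median level, the median deposited log2 fold was -0.65 in cluster 0 and lay between -0.07 and 0.02 in clusters 1, 3, 4 and 5. Over the 81 lower genes it was 0.53 in cluster 0 and between -0.08 and 0.03 in the other 4. The 11 comparisons share cells, since each cluster is part of the rest of every other, so these values are given side by side and not as separate findings. Cluster 2 had the highest fold of the 11 clusters for 62 of the 102 genes and the lowest for 57 of the 81; among the 5 clusters with most cells these numbers were 102 and 80, and the choice of called genes fixes much of that.

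**Figure D3:**
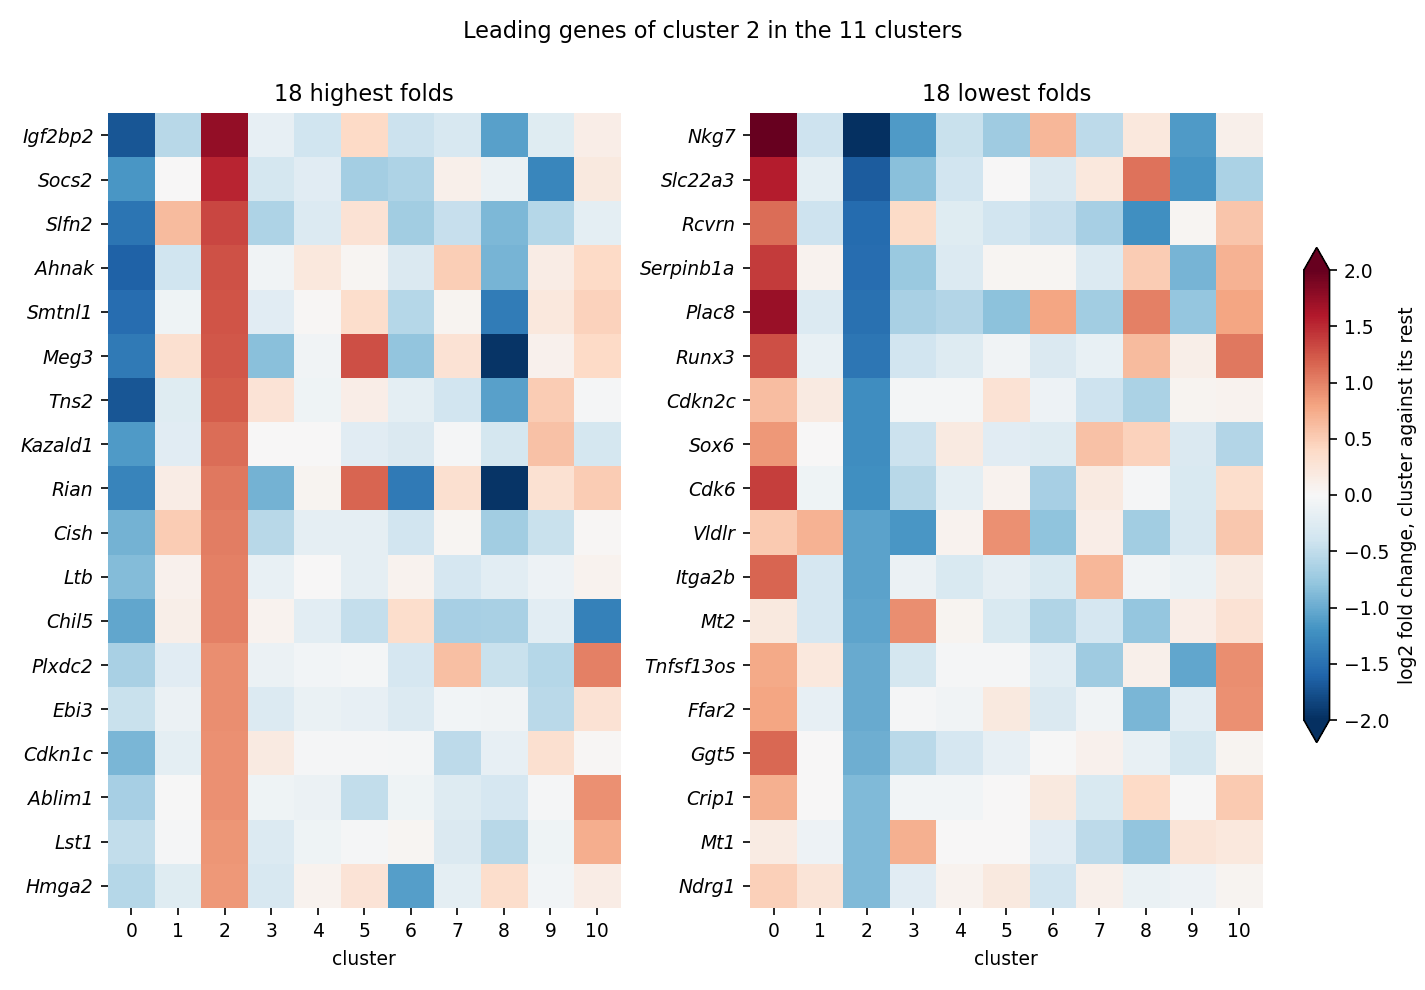
Deposited log2 fold of each cluster against its own rest (colour, cut at 2 in size) for the 18 highest (left) and 18 lowest (right) called genes of cluster 2 at or above the median level. Columns 0 and 2 carry opposite colours in most genes, and Meg3 and Rian are as red in cluster 5 (1.28 and 1.17) as in cluster 2 (1.24 and 1.06).

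Genes of the cytokine feedback loop were described by their role. Among 20 feedback inhibitors Socs2 and Cish were called higher, and the list's other members were not called. Cish (chromosome 9, 107296026 to 107302784), the founding SOCS-type inhibitor and a STAT5 target, had a derived level of 0.852 in cluster 2 against 0.287, 0.653, 0.354, 0.446 and 0.440 in clusters 0, 1, 3, 4 and 5. Cluster 1 came nearest, and the log2 fold in cluster 2 was 1.03 in the authors' deposited table. The related Socs1 was at 0.47 and Socs3, which answers interleukin 6 type cytokines, at -0.42 in the authors' deposited table, and neither was called.

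Upstream of them, little was called. Of 29 cytokine receptors Il6ra (0.51 in the authors' deposited table) was called higher and Il18r1 (-1.47) and Flt3 (-0.75), a receptor of multipotent progenitors, were called lower. Il7r had no count in cluster 2 and was not called. None of the 4 JAK kinases or 7 STATs was called: Jak1 was at 0.15, Jak2 at 0.03, Stat5a at -0.21 and Stat5b at -0.04 in the authors' deposited table.

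Downstream, Id1, an inhibitor of basic helix-loop-helix factors, was called higher (1.26 in the authors' deposited table, at a level of 0.0904 against 0.0377 in the rest) among 11 STAT targets. Pim1, a STAT5-driven kinase, was at -0.03, and Ccnd2, cyclin D2, was at 0.45 in the authors' deposited table, neither of them called. Of 15 PI3K genes Pik3r1, the p85 alpha regulatory subunit, was called higher, with a level of 2.26 in cluster 2 against 1.13 to 1.67 in clusters 0, 1, 3, 4 and 5 and a log2 fold of 0.68 in the authors' deposited table. In all 5 of 86 genes on this list were called higher (against 3.02% of all genes) and 2 lower, at a median of 0.06.

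Promoter sequences of 5 called genes, chosen as examples among those whose 300 bases around the start held a motif of their list's factors, are shown so that the letters can be read beside the folds. They are RefSeq promoters on GRCm38.p6 (mm10), 250 bases before to 50 after the start, written 5′ to 3′ on the gene's strand, with motif matches in capitals. The motif of STAT dimers (a GAS site) was searched as TTCNNNGAA, which reads the same on both strands. In Cish (chr9:107296409-107296708, plus strand) one match began at the start itself and the other 11 bases after it.
Cish: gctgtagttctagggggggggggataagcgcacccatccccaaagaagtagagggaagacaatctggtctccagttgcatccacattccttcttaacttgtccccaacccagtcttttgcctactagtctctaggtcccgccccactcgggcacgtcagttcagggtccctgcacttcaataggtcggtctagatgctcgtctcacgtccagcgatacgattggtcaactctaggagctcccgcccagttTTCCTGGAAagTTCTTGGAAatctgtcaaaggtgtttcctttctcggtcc
Among the 75 genes with a promoter in the reference that were called higher at or above the median level, 13 held a GAS match (17.3%), against 7.89% of all 6882 genes at that level and 9.38% of the 64 genes called lower. They were Ltb, Cish, Gimap6, Serpina3g, Klf9, Rras, Rian, Gimap8, Il4, Gbp5, Maff, Nfkb2 and Tgtp2. Over all called genes the share was 10.3% of 370 higher and 8.86% of 395 lower genes, against 8.43% of all 12401 genes with a promoter. A match is a string of letters and not evidence of binding.

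Imprinted genes were higher wherever they were called. Of 33 measured, 11 were called higher and none lower (background 3.02% and 3.49%), at a median log2 fold of 0.27; of the 17 at or above the median level 4 were called, all higher. Those 4 were Meg3, Rian, Dlk1 and Cdkn1c.

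All 4 measured genes of the Dlk1-Meg3 region on chromosome 12 were called higher in cluster 2. Rian, a non-coding RNA downstream of Meg3, had a derived level of 0.248 in cluster 2 and 0.0654, 0.155, 0.0799, 0.146 and 0.299 in clusters 0, 1, 3, 4 and 5. Dlk1, the paternally expressed Notch-type ligand of the region, stood at 0.520 in cluster 2 and 0.196, 0.432, 0.258, 0.348 and 0.800 in those clusters. In both genes cluster 5 was the highest, cluster 2 the next among these 6, and cluster 0 the lowest. For Mirg, a host of microRNAs, the authors' deposited tables gave a log2 fold of 0.89 in cluster 2 and 0.83 in cluster 5. Meg3, Rian and Mirg lie on 1 strand in a row, and no source used here says whether reads were counted by strand or could be split between them.

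On chromosome 7 the maternally expressed H19 RNA and the growth factor Igf2 were high but sparse. H19 had the highest fold of any listed imprinted gene, 3.70 in the authors' deposited table, at a level of 0.0299 in cluster 2 on about 137 counts. Igf2 was at 2.00 in the authors' deposited table, at 0.0384 counts per 10000 in cluster 2 and 0.0045 to 0.0165 in clusters 0, 1, 3, 4 and 5. For Ascl2, a transcription factor gene of the same region, the authors' deposited tables gave 0.73 in cluster 2 and a higher 1.19 in cluster 3. Elsewhere Plagl1 (2.52), the zinc finger factor that regulates other imprinted genes, Zdbf2 (1.32) and Peg3 (0.84) were called higher in the authors' deposited table, each on fewer than 100 counts. Ndn (0.39) and Grb10 (0.41), which are well detected, were not called in the authors' deposited table.

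Genes of G1 entry split by gene rather than by class. Cdk6 (chromosome 5, 3341485 to 3531008) had a derived level of 0.650 in cluster 2, the lowest of the 11 clusters, against 2.64, 1.30, 0.985, 1.22 and 1.43 in clusters 0, 1, 3, 4 and 5. Its log2 fold was -1.22 in the authors' deposited table, and cluster 0 stood far above the others. Cdk4, which acts beside Cdk6, was at -0.15, and the D cyclins Ccnd1, Ccnd2 and Ccnd3 were at 0.18, 0.45 and 0.17 in the authors' deposited table, none of them called. Among the inhibitors Cdkn1c was called higher while Cdkn2c (p18) was called lower, at 0.0961 counts per 10000 in cluster 2 against 0.201 to 0.281 in clusters 0, 1, 3, 4 and 5. Cdkn1b (p27) was at 0.03 and Cdkn1a (p21) at 0.28 in the authors' deposited table. Cdkn2a, also counted as lower, had no count in cluster 2. Of 40 genes on the list 1 was called higher and 3 lower, at a median of 0.02, against 3.02% and 3.49% of all genes.

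HSC regulators leaned higher, and the lower members were all surface or adhesion genes. Of 80 genes 8 were called higher and 4 lower (median 0.09), against 3.02% and 3.49% of all genes. The summed level of the list was 141 in cluster 2 and 109, 128, 131, 134 and 134 in clusters 0, 1, 3, 4 and 5. It was 150 in cluster 9 and 148 in cluster 10. Higher were Hmga2 (0.87), Jam3 (0.82), the repressor Gfi1 (0.75), Ctnnal1 (0.71), Mllt3 (0.65), Ifitm1 (0.60), Ly6a (0.55) and Fgd5 (0.52) in the authors' deposited table. Ifitm1 was the most abundant of the 8, at 27.6 counts per 10000 in cluster 2 and 12.6 to 22.1 in clusters 0, 1, 3, 4 and 5. Lower were Cd48 (-1.82), the integrin Itga2b or CD41 (-1.07), Cd34 (-0.81) and Flt3 (-0.75) in the authors' deposited table. Cd34, which long-term HSCs of adult mice are known to lack or hold at a low level, stood at 0.503 in cluster 2 against 1.29, 0.801, 0.678, 0.730 and 0.782 in clusters 0, 1, 3, 4 and 5, so cluster 2 had the lowest value and cluster 0 the highest.

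Interferon-induced genes were mostly above 0 in cluster 2. Of 68 genes 17 were called higher and 1 lower (background 3.02% and 3.49%), 64 lay above 0, and the median was 0.36 against 0.02 over all genes. At or above the median level 7 of 44 were called, all higher. By role, 8 of 14 guanylate-binding and immunity-related GTPases were called higher, 9 of 41 other effectors were called higher and 1 lower, and none of 13 regulators was called. Stat2 (0.36), Irf7 (0.47), Irf9 (0.28) and Irf1 (0.22) in the authors' deposited table were all above 0 without being called.

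Among the GTPases, which act on membranes of intracellular microbes, the largest deposited log2 folds were Gbp9 (1.44), Gbp6 (1.42) and Gbp4 (1.36), with Gbp8 at 0.71 and Gbp5 at 0.64 in the authors' deposited table. Gbp6 stood at 0.136 counts per 10000 in cluster 2 and at 0.0300 to 0.0748 in clusters 0, 1, 3, 4 and 5. Gbp4, Gbp8 and Gbp9 overlap on chromosome 5 and the family is near-identical in places, so how reads were split among them is uncertain. The most abundant of the GTPases called was Iigp1, at 0.937 in cluster 2 and 0.511 to 0.681 in those 5 clusters. Gbp7 (0.37) and Gbp2 (0.42) were not called in the authors' deposited table.

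The other effectors called higher included the tetratricopeptide antivirals Ifit3b (2.02), Ifit3 (1.48), Ifit1bl1 (1.35) and Ifit1 (0.66) in the authors' deposited table. Ifit3 and Ifit3b are near-identical copies and are uncertain singly. The DNA sensor Ifi204 had the largest fold of the effectors called (2.09, on about 41 counts), and Ifi213 was at 1.36. Oasl1 was at 0.77, and Ifi27l2a was the member called lower (-0.58) in the authors' deposited table. Ifit1 was the best detected of the 4 Ifit genes, at 0.334 in cluster 2 and 0.192 to 0.232 in clusters 0, 1, 3, 4 and 5. Its values in those 5 clusters were close together, below that of cluster 2.

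The promoters of Ifit1 (chr19:34640639-34640938, plus strand) and Ifit3 (chr19:34583279-34583578, plus strand) are printed because each holds 2 matches to the interferon-stimulated response element, searched as GAAA, any 2 bases and GAAA on both strands. In Ifit1 the matches, in capitals, began 104 and 85 bases before the start, and in Ifit3 156 and 122 bases before it.
Ifit1: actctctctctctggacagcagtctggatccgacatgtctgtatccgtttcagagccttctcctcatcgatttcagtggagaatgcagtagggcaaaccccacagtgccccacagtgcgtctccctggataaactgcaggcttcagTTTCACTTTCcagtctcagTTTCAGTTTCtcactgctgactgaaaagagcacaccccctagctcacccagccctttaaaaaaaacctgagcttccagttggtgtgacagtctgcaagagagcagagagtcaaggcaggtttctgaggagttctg
Ifit3: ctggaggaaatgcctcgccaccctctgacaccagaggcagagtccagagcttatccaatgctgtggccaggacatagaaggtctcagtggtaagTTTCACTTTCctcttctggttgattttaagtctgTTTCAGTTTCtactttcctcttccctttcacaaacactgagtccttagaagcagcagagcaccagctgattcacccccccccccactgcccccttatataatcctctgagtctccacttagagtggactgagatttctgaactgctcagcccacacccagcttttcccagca
Of the 53 interferon-list genes with a promoter in the reference 33 held this element (62.3%), against 3.76% of all genes. Among all genes called higher in cluster 2 the share was 6.76% and among those called lower 4.56%; at or above the median level 5 of 75 higher genes (Plk2, Il4, Gbp5, Ifit1 and Tgtp2) and 5 of 64 lower genes held it.

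Around lymphotoxin, the ligand and the non-canonical NF-kB subunits were higher while the rest of the pathway was not called in that direction apart from a receptor and a neighbour gene. Lymphotoxin beta is known to activate NF-kB through the partners encoded by Relb and Nfkb2. Relb stood at 0.180 counts per 10000 in cluster 2 against 0.0930 to 0.126 in clusters 0, 1, 3, 4 and 5, and Nfkb2 at 0.230 against 0.141 to 0.175. Their log2 folds were 0.70 and 0.52 in the authors' deposited table, and cluster 2 was the highest of these 6 for both. The canonical subunits Nfkb1 (-0.05) and Rela (0.13), the inhibitor Nfkbia (0.31) and the receptor Ltbr (0.00) were not called in the authors' deposited table. Tnfrsf25, the death receptor 3 gene, was called higher (2.10 in the authors' deposited table) at a low level of 0.0429 on about 196 counts.

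Of the 10 ligands listed 8 were measured, and besides Ltb the called ones were lower: Tnfsf13b (-0.89), which encodes the B cell factor BAFF, and Tnfsf4 (-0.50) in the authors' deposited table. Lst1, the leukocyte transcript next to Ltb in the class III region of chromosome 17, was at 2.08 counts per 10000 in cluster 2 against 0.988 to 1.29 in clusters 0, 1, 3, 4 and 5 and had a log2 fold of 0.88 in the authors' deposited table. Of the 9 measured neighbours of Ltb in that region Lst1 was called higher, Aif1 was called lower (-0.88), and Apom, also counted as lower, had no count in cluster 2. The whole list had 5 higher and 4 lower of 56 genes, at a median of 0.04, against 3.02% and 3.49% of all genes.

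The promoters of Ltb (chr17:35194257-35194556, plus strand) and Nfkb2 (chr19:46304487-46304786, plus strand, 1 of 3 starts in the reference) are shown because each held both a GAS match and a match to an NF-kB-type site, searched as GGG, any 3 bases and TTCC on both strands. In Ltb the GAS match began 172 bases and the NF-kB-type match 87 bases before the start. In Nfkb2 a GAS match began 148 bases before the start and NF-kB-type matches began 38 and 11 bases before it.
Ltb: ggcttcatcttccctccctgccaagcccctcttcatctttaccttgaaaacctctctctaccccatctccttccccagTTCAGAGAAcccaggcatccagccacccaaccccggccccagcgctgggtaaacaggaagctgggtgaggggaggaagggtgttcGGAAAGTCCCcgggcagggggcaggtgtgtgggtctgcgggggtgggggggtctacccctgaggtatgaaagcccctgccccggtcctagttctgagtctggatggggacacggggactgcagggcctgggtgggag
Nfkb2: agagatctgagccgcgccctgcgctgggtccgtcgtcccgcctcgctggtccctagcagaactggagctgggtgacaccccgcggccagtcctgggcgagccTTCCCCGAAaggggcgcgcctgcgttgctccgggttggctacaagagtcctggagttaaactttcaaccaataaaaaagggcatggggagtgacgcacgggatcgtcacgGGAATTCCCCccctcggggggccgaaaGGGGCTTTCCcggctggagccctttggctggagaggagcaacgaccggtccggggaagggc
At or above the median level an NF-kB-type match was held by 8 of 75 higher genes (10.7%) and 4 of 64 lower genes (6.25%), against 7.15% of all genes at that level. The E-box of MYC type was searched as CACGTG on both strands. It was in 8.0% of those higher genes, 6.25% of those lower genes and 12.7% of all genes at that level.

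Other regulators of resting cells were called singly, where 3.02% of all genes were called higher. Klf6 (0.62), Klf9 (0.53) and Klf5 (0.68) were called higher of 14 Kruppel-like factors (median 0.16) in the authors' deposited table, while Klf2, a factor of resting lymphocytes, was just under the size rule at 0.50 and Klf4 at 0.16 without being called. Of 31 immediate early genes only Maff, a small MAF factor, was called (0.67 in the authors' deposited table). Fos (-0.02), Jun (-0.04) and Egr1 (0.18) lay closer to 0, and none of these 3 was called in the authors' deposited table.

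The genes lower in cluster 2 included several of mature blood cells. Nkg7, a granule membrane protein of cytotoxic cells, had the largest drop among well-detected genes: its level was 0.0332 in cluster 2 against 0.339, 0.107, 0.0685, 0.105 and 0.0855 in clusters 0, 1, 3, 4 and 5, and its log2 fold was -2.26 in the authors' deposited table. Serpinb1a, an inhibitor of neutrophil elastase, stood at 0.198 in cluster 2 against 0.974, 0.524, 0.324, 0.428 and 0.514 in those clusters, with a log2 fold of -1.52 in the authors' deposited table. Both were lowest in cluster 2 and highest in cluster 0 among the 6 clusters. The transcription factors Runx3 (-1.45) and Sox6 (-1.24), the transporter Slc22a3 (-1.66), the calcium sensor Rcvrn (-1.53) and Plac8 (-1.50) followed in the authors' deposited table.

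Each priming list had more lower than higher members, where 3.02% of all genes were called higher and 3.49% lower. Megakaryocyte priming had 0 higher and 7 lower of 27 (median -0.15), among them Gata1 (-1.77), the platelet glycoprotein Gp5 (-1.26), Itga2b (-1.07) and Plek (-0.80) in the authors' deposited table. Lymphoid priming had 2 higher and 6 lower of 30 (median -0.28), with Tespa1 (-3.14), Cd52 (-1.65) and Runx3 lower and Mzb1 (2.30, on about 52 counts) and the chromatin organiser Satb1 (0.82) higher in the authors' deposited table. Myeloid priming had 1 higher and 6 lower of 26 (median -0.16), led by Nkg7 and by Ly6c2 (-2.05 in the authors' deposited table). Erythroid priming had 0 higher and 5 lower of 23 (median -0.15), and mast cell and basophil genes 0 and 2 of 6. These lists share members. At or above the median level the lower calls were 2 of 17, 1 of 10, 2 of 12, 0 of 8 and 0 of 1. Of all genes at that level 0.949% were called lower. Most of the priming calls thus came from sparse genes.

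Genes known to rise in HSCs with age were lower where they were called, apart from Mllt3. Of 41 genes 7 were called lower and 1 higher (median -0.04), against 3.49% and 3.02% of all genes. The list median was -0.43, -0.05, 0.32, 0.15 and 0.10 in clusters 0, 1, 3, 4 and 5, each against its own rest. In clusters 6 and 8 it was -0.37 and -0.765, so cluster 2 did not have the lowest median. The metallothioneins Mt1 and Mt2, which bind zinc and copper, stood at 0.831 and 0.166 counts per 10000 in cluster 2. In clusters 0, 1, 3, 4 and 5 Mt1 ran from 1.33 to 2.08 and Mt2 from 0.256 to 0.515, with the highest values in cluster 3. The others called lower were the glutathione transferase Gstm2 (-0.83), the aldehyde dehydrogenase Aldh1a1 (-0.76), Plscr2 (-0.70), Zg16 (-0.68) and Clca3a1 (-0.56) in the authors' deposited table. Vwf (0.34) and Clu (0.02), 2 genes often raised in old HSCs, were not called in the authors' deposited table. How many cells of cluster 2 came from the old mice was not analysed here.

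**Figure D4:**
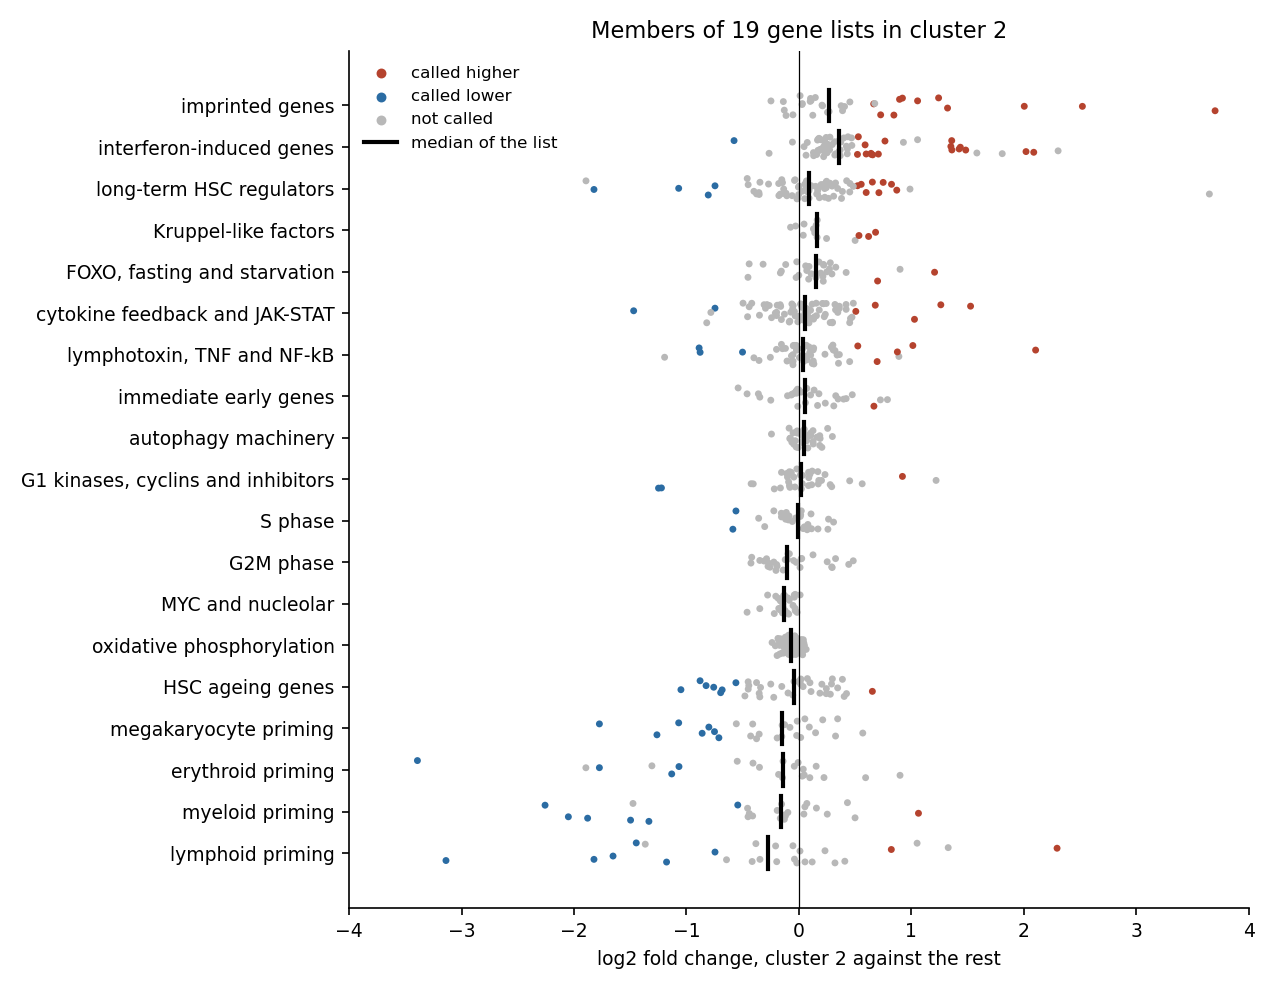
Deposited log2 fold in cluster 2 (x axis) of every measured member with a count in cluster 2 on 19 gene lists (rows), 1 point a gene, with the list median as a black bar. Imprinted and interferon-induced genes have medians of 0.27 and 0.36 and long tails to the right, the priming lists have tails to the left, and oxidative phosphorylation and autophagy genes form narrow bands near 0.

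Further genes called lower, out of 3.49% of all genes, fell outside these lists or in the actin and adhesion list. Vldlr, the receptor for very low density lipoprotein, was at 0.344 in cluster 2 and 0.325 in cluster 3, against 0.862, 0.961, 0.686 and 1.18 in clusters 0, 1, 4 and 5. Its low level was thus shared with cluster 3, and the log2 folds were -1.07 and -1.16 in the authors' deposited tables. Of 38 actin, adhesion and migration genes none was called higher and 3 were called lower: Crip1 (-0.88), the actin regulator Gmfg (-0.67) and the G protein regulator Rgs1 (-0.58) in the authors' deposited table. Further lower genes were Ffar2, a receptor for short-chain fatty acids (-1.0), Ggt5 (-0.98), Ndrg1 (-0.88), Paqr5 (-0.87) and the non-coding Tnfsf13os (-1.01) in the authors' deposited table.

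Metabolic and growth lists had medians between -0.14 and 0.14. None of 75 oxidative phosphorylation genes, 13 mitochondrially encoded genes, 31 MYC and nucleolar genes, 68 cytoplasmic ribosomal protein genes, 24 cholesterol synthesis genes and 23 MHC genes was called. Their medians were -0.07, -0.13, -0.14, -0.01, 0.14 and 0.02. Above 0 lay 14 of the 75 respiratory, 3 of the 13 mitochondrially encoded, 1 of the 31 MYC and 19 of the 24 cholesterol genes. The direction was shared by most members of each of those lists but each difference was below the size rule. The ribosomal and MHC lists were more evenly split, with 31 of 68 and 15 of 23 above 0. Of 26 glycolysis genes Pdk4, a kinase that blocks entry of pyruvate into mitochondria, was called higher (1.21 in the authors' deposited table, on about 74 counts).

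The series addressed autophagy in HSCs, and no gene of that machinery was called in cluster 2. The 40 genes had a median of 0.04, with Map1lc3b, the LC3 protein itself, at 0.06, Gabarapl1 at 0.26, Sqstm1 at 0.19 and Ulk1 at 0.04 in the authors' deposited table. Of 32 lysosomal genes Cd68 was called lower (-0.54 in the authors' deposited table) and none higher. Of 31 FOXO, fasting and starvation genes 2 were called higher, Pdk4 and the stress pseudokinase Trib3 (0.70 in the authors' deposited table), at a median of 0.15. Foxo3 itself was at -0.02, Sesn3 at 0.19 and Txnip at 0.25 in the authors' deposited table.

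The authors also scored 2922 named pathways in each cell, and of these 1380 were called higher (47.2%) and 724 lower (24.8%) by adjusted p and the sign of the score. With so many called, only the order is described. The score is a signed statistic over cells, its median over all pathways was 1.62, and the pathway genes were not analysed here.

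In the deposited pathway table the highest scores of cluster 2 were EDA signalling in hair follicle development (32.6, log2 fold 0.65), TNF superfamily members mediating the non-canonical NF-kB pathway (25.4, 0.36), JAK-STAT signalling (24.97, 0.12) and a set of long non-coding RNAs in therapeutic resistance (24.8, 0.70). Then came interleukin 7 signalling (23.5), interferon alpha and beta signalling (23.3), interferon signalling (23.2), 3 sets of PI3K signalling (22.04, 21.2 and 20.1), the interferon gamma pathway (20.1) and regulation of insulin-like growth factor transport (20.05) in the authors' deposited table. They come from the same cells as the gene values above and add no separate evidence. Il7r, the interleukin 7 receptor gene, had no count in cluster 2.

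The lowest scores in the authors' deposited table were defective GALNT3 (-24.4), the interleukin 17 pathway (-22.9, log2 fold -0.66), defective C1GALT1C1 (-22.1), fatty acid omega oxidation (-21.9), ethanol oxidation (-21.9), clearance of very low density lipoprotein (-21.6, -0.69) and the haematopoietic cell lineage (-21.5). The Cori cycle (-21.1), a TYROBP network (-20.6), the pentose phosphate pathway (-20.5), the electron transport chain (-20.2) and fructose catabolism (-20.2) completed the 12. Several of these had folds near 0, such as -0.06 for the electron transport chain in the authors' deposited table, so a large score over many cells went with a small difference. The same held on the high side. There the log2 fold was 0.08 for interferon signalling, 0.14 for interferon alpha and beta signalling and 0.13 for the interferon gamma pathway. It was 0.10 for regulation of insulin-like growth factor transport.

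**Figure D5:**
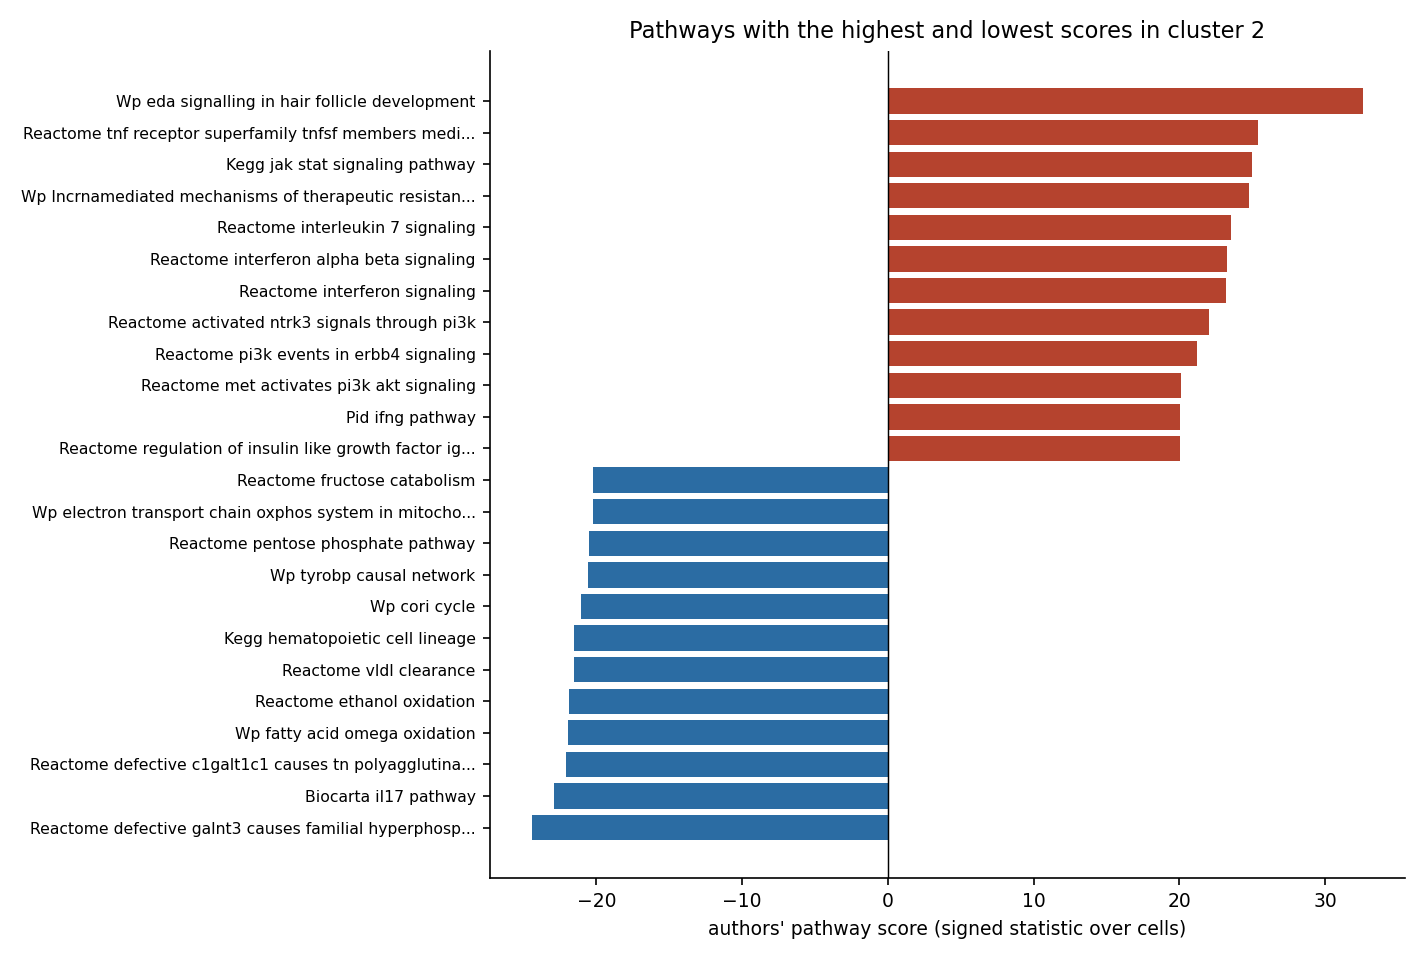
The authors' score (x axis, a signed statistic over cells) of the 12 highest and 12 lowest of 2922 pathways in cluster 2. The EDA set stands apart at 32.6, and the other bars run from 20.05 to 25.4 on the high side and from -20.2 to -24.4 on the low side.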

How the data were processed

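HSCs of 6 libraries were profiled, and 22 deposited tables (genes and pathways, each for 11 clusters) pool their cells. Scanpy and the mm10 build are named per the submitters' processing notes; no source used here gives the aligner, cell filters, doublet handling, clustering or test. Per the file headers the authors deposited log2 mean levels and log2 fold changes, p-values over cells with adjusted p-values, and pathway scores. The log2 mean was taken, from the values, as counts scaled to 10000 per cell.

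Cell numbers were read from the p-values of genes seen in 1 cell, each the p of a Welch statistic of size 1. For cluster 2 they were read from 5 genes on its side and 14 on the other, which added up to 22378. Levels per cluster were solved from mean and fold. For genes at or above the median level, their sum over clusters lay above the deposited mean by a median of 0.0482%. The largest excess was 6.52%. The largest shortfall, and genes below the median level, were not summarised. Counts behind a gene assume 11707 counts per cell, the median over 19 cells (4239 to 22599), and 10756 over 5 cells of cluster 2. The reading of cell numbers and levels was tested on simulated data.

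A gene was called at a deposited log2 fold of at least 0.5 in size and a deposited adjusted p under 0.05. The p-value treats cells as replicates and served as a filter only. A log2 fold beyond 10 in size marks a gene with no count on 1 side, for which no fold is printed. Named genes were the 6 label genes, the 20 highest and 20 lowest called genes at or above the median level, up to 5 called and 3 uncalled members per list, the 10 with the largest gap in deposited fold to the next cluster, and the 12 highest and 12 lowest pathways; unnamed gene models were left out of the 20, and the text prints part of these. Some genes are not reported here. The cluster, its markers and the gene lists were chosen with earlier results of these data known. Gene positions are from GENCODE M21; 12401 of 17068 genes matched a RefSeq promoter by symbol. Python 3.11.15, pandas 2.3.3, numpy 2.4.6, scipy 1.17.1 and matplotlib 3.10.9 were used.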

Additional observations from a re-analysis of the deposited data

How the results depend on the processing

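The counts of called genes followed the rule that made them. At a log2 fold of at least 0.25 in place of 0.5, 1171 genes were called higher and 1087 lower; at a fold of at least 1, 178 and 363; and among genes at or above the median level only, 102 and 81. An adjusted p under 0.01 (415 and 423) and centring on the median over all genes (494 and 612) stayed within 1.5 times of 515 and 595. With a pathway log2 fold of at least 0.1 besides the adjusted p, 259 pathways were called higher and 139 lower. Cluster 2 was highest for 62 called genes among 11 clusters and for 102 among the 5 clusters with most cells; fewer clusters were compared there. Of 39 lists, the median moved by less than 0.1 (log2) in 32 when genes below the median level were left out, by more in 5 and reversed in 1 (B cell markers, from -0.40 to 0.0788, with 1 gene left); stromal markers had no gene there. The mean over members moved 11 lists by at least 0.1 and centring none. With 250 promoter bases in place of 300 the shares of called genes with a motif stayed within their counting intervals. No paired analysis was possible because the tables pool the libraries and hold no value per sample; for the same reason no library could be left out. Depth limits the 413 higher and 514 lower genes below the median level most.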

Other observations

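The gene groups in this section were chosen after their values were seen, so their counts are a description. Of all genes 3.02% were called higher and 3.49% lower. Insulin-like growth factor genes and regulators known from fetal HSCs were high in cluster 2: of 20 measured, 9 were called higher and none lower, at a median log2 fold of 0.54. The summed level of the group was 4.46 in cluster 2 but 5.10 in cluster 7 and 4.88 in cluster 10. The group medians in clusters 7 and 10 were lower, at 0.07 and 0.12. Igf1 stood at 0.153 counts per 10000 in cluster 2 and at 0.00669, 0.0216, 0.0225, 0.0270 and 0.0225 in clusters 0, 1, 3, 4 and 5, with a log2 fold of 3.05 in the authors' deposited table on about 698 counts. Lin28b, an RNA-binding repressor of let-7 microRNAs that is known from fetal HSCs, was at 2.03 on about 90 counts, and the zinc finger factor Plag1 was at 0.63 in the authors' deposited table. The same group holds H19, Igf2, Plagl1, Igf2bp2, Hmga1 and Hmga2. The receptors Igf1r (0.28) and Igf2r (0.45) and the relative Igf2bp3 (0.30) were not called in the authors' deposited table.

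GIMAP genes, small GTPases of lymphocytes that lie together on chromosome 6, were called higher in 6 of 9, at a median of 0.64. Gimap6, the best detected of those called, stood at 2.34 counts per 10000 in cluster 2 and 1.29 to 1.69 in clusters 0, 1, 3, 4 and 5. Gimap3 (1.86), Gimap4 (1.46), Gimap8 (0.64) and Gimap5 (0.63) were also called, and Gimap1 (0.30) and Gimap9 (0.30) were not, in the authors' deposited table. Gimap1os is antisense to its neighbours, and no source used here gives the strand of counting.

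Of 19 secreted cytokines and chemokines 6 were called higher and 2 lower (median 0.18). The interferon-induced chemokine Cxcl10 stood at 0.184 in cluster 2 and 0.0146 to 0.0412 in clusters 0, 1, 3, 4 and 5, and Cxcl9 had a log2 fold of 2.48 in the authors' deposited table. Il4 was at 0.78 and the neurotrophin Ntf5 at 1.50, while Ccl2 (-1.64) and Il12a (-0.73) were lower in the authors' deposited table. Of 22 TGF-beta and BMP genes 4 were called higher, the activin subunit Inhba (1.49), Id1 (1.26), Pmepa1 (1.12) and Ltbp4 (0.76) in the authors' deposited table, and the list median was 0.05. Of 23 endoplasmic reticulum chaperone and unfolded protein genes the transcription factor Xbp1 was called higher (0.69), and Hspa5 (0.30) and Hsp90b1 (0.29) were not called in the authors' deposited table. Several of these groups rest on genes below the median level: 4 of the 9 growth factor genes and 4 of the 6 GIMAP genes called lay at or above it, and none of the 4 TGF-beta genes did.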
